A study of Mus musculus with 43 samples.

Results

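The cardiac natriuretic peptide system was followed through 6 genes chosen by symbol from the 57010 genes of the count table: the peptide genes Nppa and Nppb, the peptide-activating protease gene Corin, and the receptor genes Npr1, Npr2 and Npr3. All 6 passed the filter on low counts in every comparison. The mice carried a CRISPR/Cas9-made Vegfa allele with a stop codon at glutamine 150, called Q150X in the labels (HO in the study's shorthand), or were wild type. RNA came from whole hearts, from isolated cardiomyocytes and from isolated endothelial cells of the heart. Whole hearts were taken at homeostasis, written here as uninjured (3 Q150X and 3 wild type), 7 days after myocardial infarction (4 and 4) and 30 days after it (4 and 3). Cardiomyocytes were taken 3 days after infarction (3 Q150X and 3 wild type) and from uninjured hearts (3 and 3), and endothelial cells 3 days after infarction (2 Q150X and 2 wild type) and from uninjured hearts (3 and 3). The labels give no strain, age, sex or isolation method, and they do not say whether libraries are single animals or pools, so p-values measure the spread between these libraries.

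Nppa and Nppb encode the precursors of atrial and B-type natriuretic peptide, hormones that heart muscle releases under stretch and that promote salt and water loss and relax vessels. Atrial muscle makes Nppa throughout life, whereas ventricular muscle silences most of it after birth and switches it on again under load or injury, which is why both genes serve as markers of cardiac stress. Corin is a membrane protease of cardiomyocytes that cuts pro-atrial natriuretic peptide into its active form. Npr1 encodes the guanylyl cyclase receptor for both cardiac peptides, Npr2 the related receptor for C-type natriuretic peptide, and Npr3 a receptor without a cyclase domain that takes peptides up and removes them.

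Library totals ran from 25948706 to 37356177 counts in whole hearts, from 25035490 to 42246348 in cardiomyocytes and from 32008175 to 45243608 in endothelial cells. Expression levels are given in CPM, on one TMM scale for the 43 libraries. CPM divides each count by its scaled library total, and TMM is edgeR's correction for differences in RNA composition. The edited gene, Vegfa, was counted in every library, and its level did not pass the test between genotypes in any of the 7 comparisons (log2 fold changes of -0.53 to 0.18, Q150X over wild type); gene-level counts do not show the allele. Some libraries stood apart. The uninjured hearts numbered 1, of both genotypes, held atrial RNA: Myl7, the atrial myosin light chain gene, was at 452 CPM in Q150X heart 1 and 506 CPM in wild-type heart 1 and at most 0.0321 CPM in the other 4 uninjured hearts. Wild-type day 7 heart 4 held the placental genes Tpbpa (446 CPM) and Prl3b1 (306 CPM). The 4 day 3 endothelial libraries held 324 to 851 CPM of Xist, the transcript of the inactive X chromosome, against at most 0.877 CPM in the 6 uninjured ones. The Y-linked gene Ddx3y was at most 0.332 CPM against 138 to 200 CPM, so day and sex cannot be told apart there. Q150X day 3 endothelial library 2 held 258 CPM of the endothelial gene Pecam1 and 1531 CPM of the leukocyte gene Ptprc, against 1774 to 2371 CPM and 6.37 to 19.9 CPM in the uninjured endothelial libraries.

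Nppb and Nppa lie beside each other on chromosome 4, with starts 14822 bases apart in GRCm38.p6, and their start regions are shown because the results turn on how the levels of these neighbours moved. Each stretch runs from 250 bases before the RefSeq start to 50 after it on the plus strand, Nppb at chr4:147985650-147985949 and Nppa at chr4:148000472-148000771. Capitals mark GATAA (the core bound by GATA factors), AAGTG (NKX2-5), TCACAC (T-box factors) and CATTCC (TEAD factors), read on both strands.
Nppb: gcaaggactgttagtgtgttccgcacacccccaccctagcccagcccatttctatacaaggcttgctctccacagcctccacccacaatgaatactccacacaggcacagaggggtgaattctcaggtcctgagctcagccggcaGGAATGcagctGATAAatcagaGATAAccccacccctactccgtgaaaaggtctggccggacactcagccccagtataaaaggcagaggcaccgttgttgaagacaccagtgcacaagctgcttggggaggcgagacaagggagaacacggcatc
Nppa: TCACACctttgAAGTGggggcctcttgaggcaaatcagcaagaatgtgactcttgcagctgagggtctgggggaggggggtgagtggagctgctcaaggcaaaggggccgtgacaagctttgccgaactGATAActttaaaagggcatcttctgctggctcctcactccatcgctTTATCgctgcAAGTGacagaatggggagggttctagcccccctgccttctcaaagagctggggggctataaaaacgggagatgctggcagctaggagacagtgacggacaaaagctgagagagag
Both windows hold 2 GATAA matches, at 94 and 83 bases before the start (first base of each match) in Nppb and at 121 and 75 bases before it in Nppa. GATAA occurs in 25.4% of the 32851 RefSeq promoter windows of this length. Nppa alone of the 6 held AAGTG (2 matches; 46.4% of windows) and TCACAC (1 match; 14.5%), and Nppb alone held CATTCC (1 match, read on the minus strand as GGAATG; 14.7%). Neither TGACTCA, the AP-1 site (5.20% of windows), nor a CArG box, the serum response factor site (1.63%), was found in any of the 6 windows. The short E-box pattern CANNTG (72.3%) was found in all of them but that of Npr1. A match overlaps an AAGTG match in Nppa, and in Nppb its match shares a base with a GATAA match. These matches describe letters in the windows and not bound sites.

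In uninjured cells Nppb and Corin were higher in cardiomyocytes and Npr1 and Npr3 were higher in endothelial cells. Nppb was at 233, 290.1 and 363 CPM in Q150X cardiomyocytes against 8.02, 7.74 and 0.639 CPM in Q150X endothelial cells, and at 311, 271 and 249 CPM in wild-type cardiomyocytes against 5.67, 6.39 and 8.94 CPM in wild-type endothelial cells. Corin was at 432, 381 and 423 CPM in Q150X cardiomyocytes against 7.56, 13.5 and 7.01 CPM in endothelial cells, and at 300.2, 344 and 317 CPM against 10.4, 10.1 and 9.37 CPM in wild type. No cardiomyocyte library came near an endothelial one for either gene. Npr3 ran the other way, at 3.77 to 7.57 CPM in Q150X cardiomyocytes against 252 to 345 CPM in endothelial cells, and at 2.57 to 6.63 CPM against 298 to 518 CPM in wild type. Levels of Npr1 were 2.06 to 4.62 CPM against 121 to 175 CPM in Q150X cells and 4.54 to 9.28 CPM against 145 to 173 CPM in wild type. Of the 5 genes that passed the test below, the C-type peptide receptor Npr2 was the least divided, at 51.7 to 57.4 CPM in Q150X cardiomyocytes against 96.7 to 99.0 CPM in endothelial cells.

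In edgeR's quasi-likelihood test with Benjamini-Hochberg adjustment over all genes tested (called at an adjusted p under 0.05), 5 of the 6 genes differed between the cell types in each genotype, against 72.1% of all genes in Q150X and 70.4% in wild type. The log2 fold change of cardiomyocytes over endothelial cells was 5.92 ± 0.68 (SE) in Q150X and 5.48 ± 0.66 in wild type for Nppb (adjusted p = 4.65e-07 and 1.00e-06), and 5.63 ± 0.23 and 5.19 ± 0.23 for Corin (adjusted p = 1.20e-12 and 2.53e-12). It was -5.65 ± 0.75 and -6.15 ± 0.77 for Npr3 (adjusted p = 3.25e-06 and 1.71e-06), -5.25 ± 0.30 and -4.31 ± 0.29 for Npr1 (adjusted p = 6.48e-11 and 4.74e-10), and -0.66 ± 0.13 and -0.59 ± 0.13 for Npr2 (adjusted p = 0.000206 and 0.000627). The median of all genes in these comparisons was -0.26 in Q150X and -0.20 in wild type, and it moved to -1.41 and -1.52 when libraries were scaled by their totals alone. The same endothelial libraries held 10 of 10 cardiomyocyte genes at summed levels of 302 to 574 CPM, against 82414 to 95414 CPM in uninjured cardiomyocytes.

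Nppa passed the test in neither genotype in the fit that also holds the uninjured hearts. It was at 65.4, 46.4 and 26.5 CPM in uninjured Q150X cardiomyocytes against 46.8, 68.7 and 22.8 CPM in endothelial cells, and at 29.4, 22.1 and 21.4 CPM in wild-type cardiomyocytes against 39.9, 45.2 and 49.3 CPM in endothelial cells. The Q150X ranges overlapped, and all 3 wild-type cardiomyocyte libraries lay below the endothelial ones. Neither comparison passed the test (log2 fold change 0.17 ± 1.24, adjusted p = 0.909, in Q150X, and -0.70 ± 1.25, adjusted p = 0.630, in wild type; scaling by library totals turned the Q150X value to -0.997). With the 2 cell types of a genotype fitted alone, the wild-type difference was -0.68 and passed (edgeR, adjusted p = 0.000900), and the Q150X one was 0.21 and did not (adjusted p = 0.675). Beside this Nppa, the 6 uninjured endothelial libraries held 21.7 to 68.0 CPM of Myl7, 26.5 to 71.1 CPM of the atrial light chain Myl4, 5.13 to 18.3 CPM of sarcolipin (Sln) and 3.75 to 18.3 CPM of the atrial growth factor Bmp10. In uninjured cardiomyocytes the highest values were 7.67 CPM of Myl7, 10.8 CPM of Myl4, 2.20 CPM of Sln and 0 CPM of Bmp10. Nppa was 0.730 to 1.05 times as high as Myl7 in each uninjured endothelial library, and 2.32 and 1.94 times as high in Q150X and wild-type uninjured heart 1. The part of atrial RNA in the endothelial Nppa level was not tested.

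**Figure D1:**
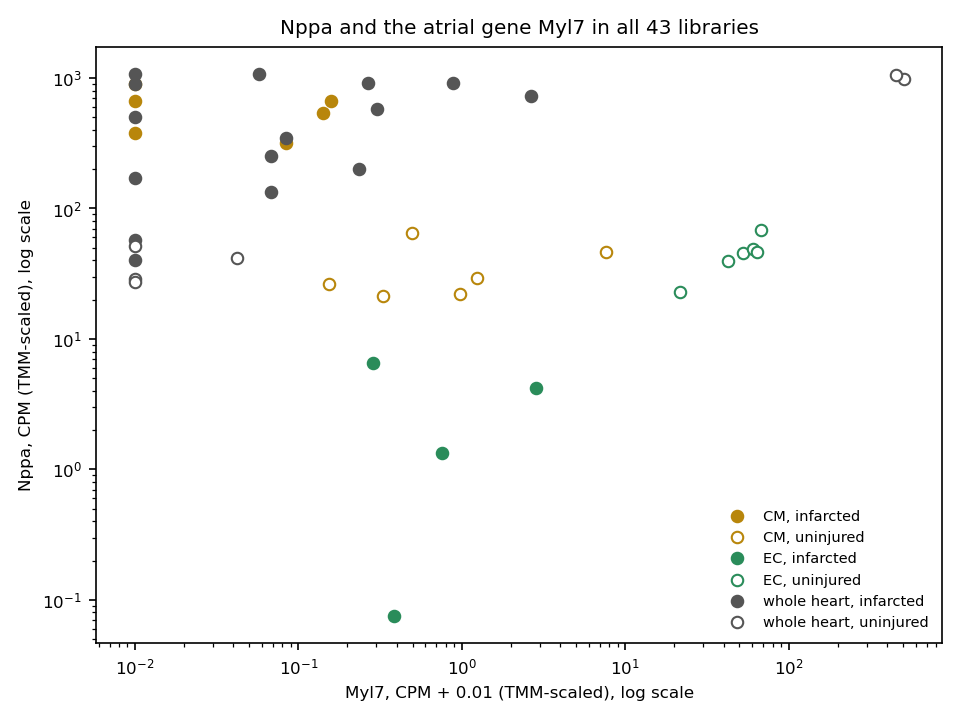
Nppa level (vertical axis) against the level of the atrial gene Myl7 (horizontal axis, with 0.01 added so that zeros can be drawn), both in TMM-scaled CPM on log axes, 1 point per library; filled points are infarcted and open points uninjured. Uninjured endothelial cells lie at 21.7 to 68.0 CPM of Myl7 and uninjured hearts 1 at 452 and 506 CPM, while cardiomyocytes at day 3 reach 316 to 902 CPM of Nppa with at most 0.148 CPM of Myl7.

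Divided by exon length (0.865 kb for Nppa, 0.781 kb for Nppb, 5.40 kb for Corin, 4.78 kb for Npr1, 4.67 kb for Npr2 and 9.39 kb for Npr3 in GENCODE vM21), the levels could be compared between genes. Nppb led the 6 genes in uninjured cardiomyocytes, at 378 ± 83.3 CPM per kb in Q150X and 354 ± 40.2 in wild type (SD, n = 3). Corin followed at 76.3 ± 5.02 and 59.3 ± 4.05 CPM per kb, then Nppa at 53.3 ± 22.5 and 28.1 ± 5.10, and in Q150X the Corin and Nppa values overlapped within their spread. Npr2 came to 11.8 ± 0.625 and 12.02 ± 1.22 CPM per kb, while Npr1 and Npr3 stayed under 2 CPM per kb. In uninjured endothelial cells Nppa had the highest mean, at 53.3 ± 26.5 CPM per kb in Q150X and 51.8 ± 5.44 in wild type. Npr1 reached 31.9 ± 5.95 CPM per kb in Q150X and 32.7 ± 3.08 in wild type, and Npr3 32.1 ± 4.99 and 40.6 ± 12.7, which did not differ beyond their spread. The Nppa and Npr3 values overlapped within their spread in both genotypes. An annotated antisense or divergent transcript overlaps Nppa, Npr1, Npr2 and Npr3, and 5 small or noncoding genes overlap Corin; whether reads were counted by strand is not given in the sources used here.

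By day 3 after infarction Nppa rose in cardiomyocytes of both genotypes, while Nppb, already abundant, did not pass the test. Nppa was at 316, 662 and 902 CPM in day 3 Q150X cardiomyocytes, against 65.4, 46.4 and 26.5 CPM in uninjured Q150X cardiomyocytes. It was at 668, 379 and 538 CPM in day 3 wild-type cardiomyocytes, against 29.4, 22.1 and 21.4 CPM in uninjured ones. No day 3 library overlapped an uninjured library of its genotype, and the means stood 13.6-fold apart in Q150X and 21.7-fold apart in wild type. The log2 fold change was 3.64 ± 0.46 in Q150X (edgeR, adjusted p = 0.000657) and 4.35 ± 0.48 in wild type (adjusted p = 0.000567). Nppa was the 1 member of 6 called in each of these comparisons, against 27.0% of all genes in Q150X and 17.4% in wild type. Nppb was at 372, 398 and 323 CPM at day 3 against 233, 290.1 and 363 CPM uninjured in Q150X, and at 415, 374 and 239 CPM against 311, 271 and 249 CPM in wild type. These ranges overlapped, and the log2 fold changes of 0.19 ± 0.20 (adjusted p = 0.528) and 0.21 ± 0.20 (adjusted p = 0.506) did not pass the test. Per kb, day 3 Q150X cardiomyocytes had 725 ± 341 CPM of Nppa and 466 ± 49.1 of Nppb, and wild-type ones 611 ± 168 and 439 ± 118. The order of the peptides was thus the opposite of that in uninjured cells, with overlapping spreads. Day 3 cardiomyocytes also held more leukocyte RNA, with a 10-gene sum of 129 to 347 CPM against 2.81 to 14.2 CPM in uninjured ones. They also held more fibroblast RNA, with a 7-gene sum of 510 to 1134 CPM against 21.3 to 112 CPM; their part in the Nppa level was not tested.

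**Figure D2:**
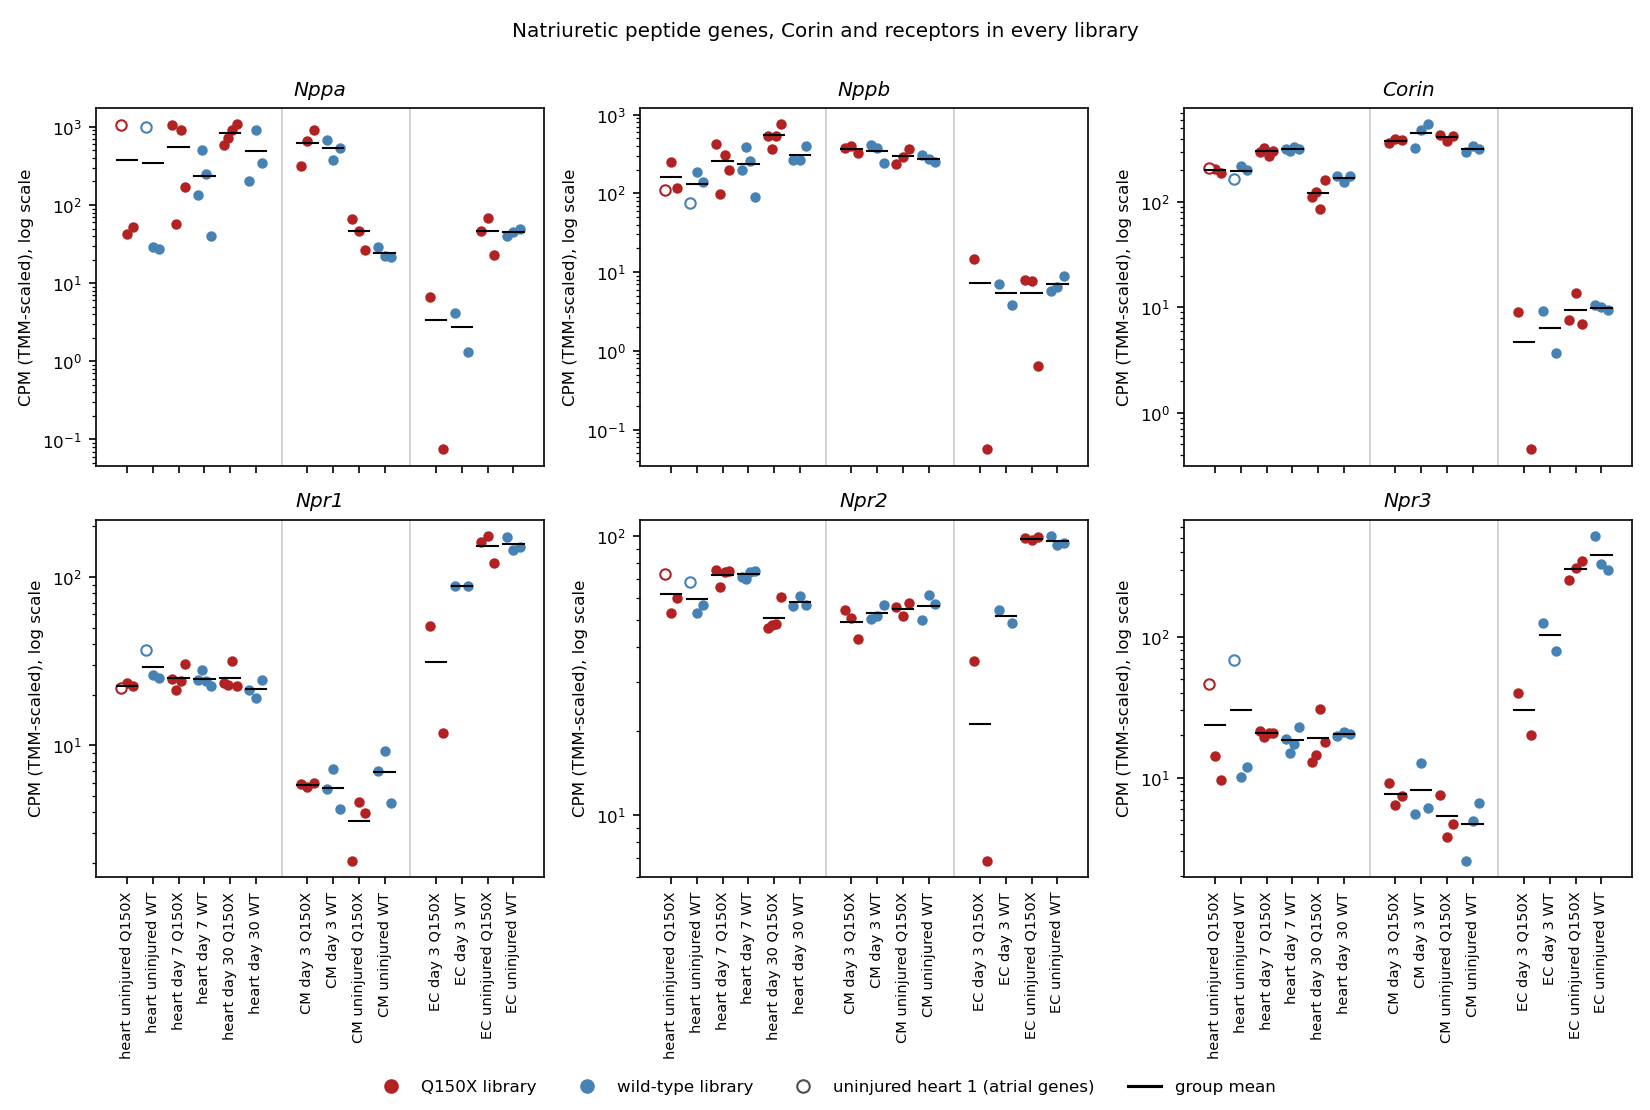
Levels of the 6 genes in every library (vertical axes, TMM-scaled CPM on log scales) by group, with whole hearts left, cardiomyocytes (CM) in the middle and endothelial cells (EC) right; points are libraries, black lines group means, and open points the uninjured hearts 1 with atrial RNA. Nppa lies at 316 to 902 CPM in cardiomyocytes at day 3 and at 21.4 to 65.4 CPM in uninjured ones, and Npr1 and Npr3 are highest in uninjured endothelial cells.

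In whole hearts, Nppa rested on which uninjured hearts it was set against. In Q150X hearts it was at 1049, 42.1 and 52.0 CPM uninjured, at 1067, 57.6, 898 and 170.1 CPM at day 7, and at 578, 724, 914 and 1072 CPM at day 30. In wild-type hearts it was at 980.0, 28.9 and 27.5 CPM uninjured, at 133, 501, 251 and 40.4 CPM at day 7, and at 201, 910.3 and 346 CPM at day 30. Without the first uninjured heart of each genotype, every infarcted heart lay above the 2 uninjured hearts left. With all libraries, none of the log2 fold changes over uninjured hearts passed edgeR's test: 0.53 ± 1.32 at day 7 and 1.11 ± 1.34 at day 30 in Q150X (adjusted p = 0.804 and 0.564), and -0.58 ± 1.29 and 0.49 ± 1.39 in wild type (adjusted p = 0.809 and 0.847). limma-voom with library weights, on the same libraries, called Nppa at day 30 in Q150X (3.85, adjusted p = 0.00410) and in wild type (3.35, adjusted p = 0.0148), and not at day 7 (2.48, adjusted p = 0.0614, and 2.12, adjusted p = 0.0837). Without both hearts 1 they were 3.53 ± 1.23 (adjusted p = 0.0467) and 4.12 ± 1.28 (adjusted p = 0.0186) in Q150X, and 3.03 ± 1.20 (adjusted p = 0.0878) and 4.10 ± 1.30 (adjusted p = 0.0266) in wild type. Day 7 and day 30 share their uninjured hearts. In whole tissue, more or fewer cells of a type and more or less RNA per cell cannot be told apart.

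At day 7 Nppa differed more between hearts of 1 group than any other of the 6 genes. There the highest heart stood 18.5-fold above the lowest in Q150X and 12.4-fold in wild type, and at day 30 it spread 1.85-fold and 4.53-fold, less in Q150X than Nppb (2.08-fold) or Npr3 (2.39-fold). Nppb spread 4.35-fold and 4.30-fold at day 7, and Corin 1.20-fold and 1.09-fold. Within each genotype the day 7 hearts had the same order for both peptides: Nppb was at 422, 96.9, 310.1 and 195 CPM in Q150X hearts 1 to 4 and at 196, 388, 258 and 90.4 CPM in wild-type hearts 1 to 4. At day 30 the order was not shared. Nppb was then at 533, 360.3, 536 and 749 CPM in Q150X hearts and at 261, 266 and 404 CPM in wild-type hearts. The lowest wild-type day 7 heart for both peptides was heart 4, the library with placental RNA; Q150X day 7 heart 2, with 57.6 CPM of Nppa and 96.9 CPM of Nppb, was about as low with 0 CPM of Tpbpa. Across the 19 whole hearts other than uninjured hearts 1, Nppa and Nppb had a Pearson r of 0.833 on the log2(CPM + 1) scale, given as a description, since these libraries span 3 times and both genotypes.

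**Figure D3:**
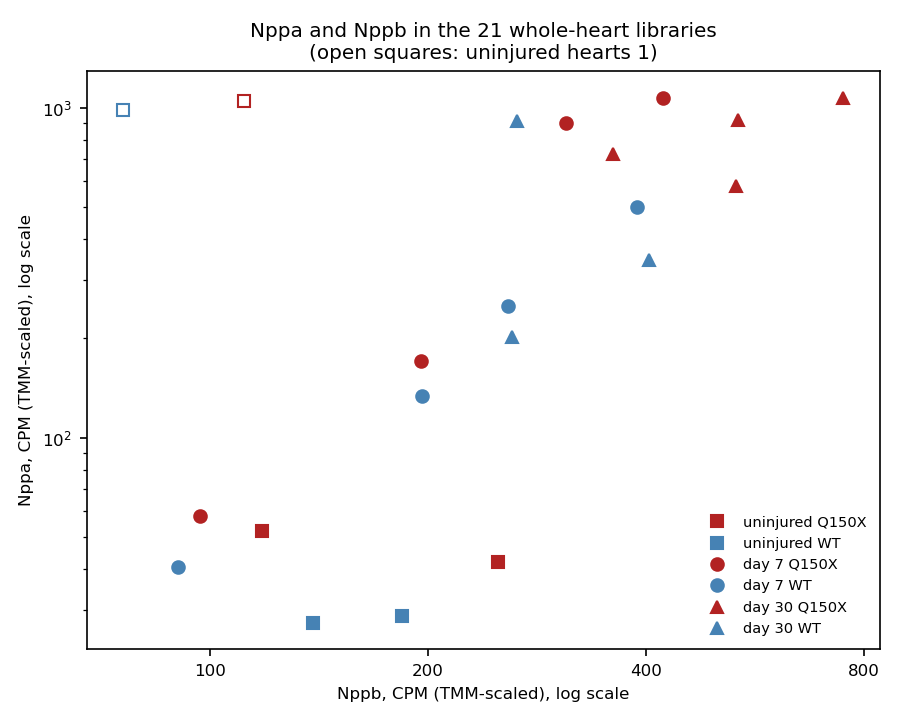
Nppa (vertical axis) against Nppb (horizontal axis) in the 21 whole hearts, both in TMM-scaled CPM on log axes; squares are uninjured, circles day 7 and triangles day 30, red for Q150X and blue for wild type. The open squares, uninjured hearts 1, hold 1049 CPM of Nppa with 112 CPM of Nppb in Q150X and 980.0 CPM of Nppa with 75.8 CPM of Nppb in wild type, and the day 7 hearts run from 40.4 to 1067 CPM of Nppa as Nppb runs from 90.4 to 422 CPM.

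Nppb rose in Q150X hearts by day 30. Its 4 libraries, at 360.3 to 749 CPM, all lay above the uninjured ones at 112, 249.7 and 118 CPM, with a log2 fold change of 1.76 ± 0.50 (edgeR, adjusted p = 0.0136). Without uninjured hearts 1 the change was 1.56 ± 0.61 and missed the threshold (adjusted p = 0.0518), as it did without Q150X uninjured heart 1 or heart 3 alone (adjusted p = 0.0540 and 0.0685). In wild type the day 30 hearts, at 261 to 404 CPM, also lay above the uninjured ones at 75.8, 184 and 139 CPM, with a log2 fold change of 1.22 ± 0.52 that did not pass (adjusted p = 0.135). At day 7 the changes were 0.67 ± 0.48 in Q150X and 0.81 ± 0.48 in wild type (adjusted p = 0.324 and 0.287). From day 7 to day 30, Nppb changed by 1.09 ± 0.44 in Q150X (edgeR, adjusted p = 0.0692) and by 0.41 ± 0.47 in wild type (adjusted p = 0.534). The Q150X change passed in DESeq2 (adjusted p = 0.0220) and limma-voom (adjusted p = 0.0478), and in edgeR without the libraries that stand apart (adjusted p = 0.0472) or without Q150X day 7 heart 1 (adjusted p = 0.0312). Nppa changed by 0.59 ± 1.21 and 1.07 ± 1.29 (adjusted p = 0.740 and 0.557). The difference of the 2 genotypes' changes from uninjured to day 30 was 0.55 ± 0.70 for Nppb and did not pass (adjusted p = 0.822).

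Corin was higher at day 7 than in uninjured hearts and lower at day 30 than at day 7. In Q150X hearts it was at 209, 204 and 189 CPM uninjured, at 301, 329, 273 and 304 CPM at day 7, and at 112, 125, 85.3 and 163 CPM at day 30. In wild-type hearts it was at 166, 218 and 203 CPM uninjured, at 322, 308, 334 and 317 CPM at day 7, and at 177, 154 and 177 CPM at day 30. In both genotypes the day 7 hearts lay above all uninjured and all day 30 hearts, and in Q150X the day 30 hearts also lay below all uninjured ones. At day 7 the log2 fold change over uninjured hearts was 0.59 ± 0.16 in Q150X (edgeR, adjusted p = 0.0101) and 0.71 ± 0.16 in wild type (adjusted p = 0.00562), and Corin was the 1 member of 6 called, against 26.0% and 13.7% of all genes. At day 30 over uninjured hearts it was -0.73 ± 0.15 in Q150X (adjusted p = 0.00182), where Corin and Nppb were the 2 members called (29.7% of all genes were). In wild type it was -0.22 ± 0.17 (adjusted p = 0.408), and 0 members were called by edgeR, with 2 at an unadjusted p under 0.05, 0 by DESeq2 and 1 by limma-voom, against 8.93% of all genes. Between day 30 and day 7, Corin fell by 1.32 ± 0.15 on the log2 scale in Q150X hearts (adjusted p = 5.95e-06) and by 0.93 ± 0.16 in wild-type hearts (adjusted p = 0.000446). It was called there together with Npr2, 2 members of 6 in each genotype, against 31.4% and 30.0% of all genes. Leaving out the uninjured hearts 1 moved the day 7 values to 0.61 ± 0.17 in Q150X and 0.60 ± 0.17 in wild type (adjusted p = 0.00975 and 0.0139).

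Cardiomyocyte markers moved as follows in the same hearts. The summed level of 10 cardiomyocyte genes was 56754 to 80572 CPM in uninjured Q150X hearts, 35898 to 42584 CPM at day 7 and 27761 to 44929 CPM at day 30. In wild type it was 47707 to 61820 CPM, 36332 to 47729 CPM and 45807 to 51468 CPM at those times. At day 7 this sum was lower than in uninjured hearts in Q150X, while in wild type the ranges overlapped. The uninjured ranges include the libraries with atrial RNA. The part of cell composition in the day 7 Corin level was not tested. Among day 30 Q150X hearts, heart 3 had the lowest Corin (85.3 CPM) and the lowest cardiomyocyte sum (27761 CPM), and heart 4 the highest of both (163 and 44929 CPM); its part in the fall was not tested. In isolated cardiomyocytes Corin was at 362, 392 and 386 CPM at day 3 against 432, 381 and 423 CPM uninjured in Q150X, and at 328, 479 and 545 CPM against 300.2, 344 and 317 CPM in wild type. The ranges overlapped in both genotypes, and neither the change of -0.23 ± 0.14 in Q150X (adjusted p = 0.235) nor that of 0.40 ± 0.14 in wild type (adjusted p = 0.0614) passed edgeR's test. The wild-type change passed in DESeq2 (adjusted p = 0.0336), in limma-voom (adjusted p = 0.0237) and in edgeR without wild-type day 3 library 1 (adjusted p = 0.00358).

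**Figure D4:**
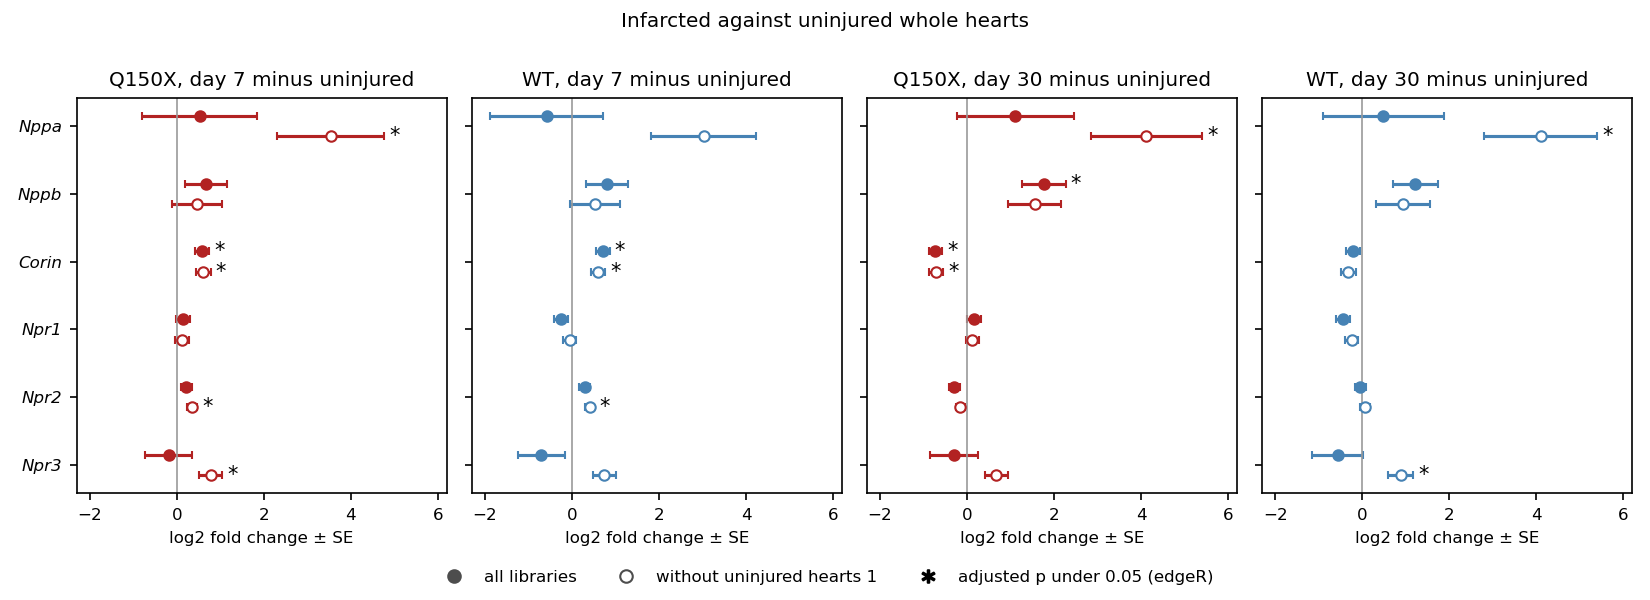
log2 fold changes (horizontal axes, ± SE) of the 6 genes in infarcted over uninjured whole hearts at day 7 and day 30, Q150X in red and wild type in blue; filled points use all libraries and open points leave out the uninjured hearts 1, and an asterisk marks an adjusted p under 0.05 in edgeR. Nppa lies at -0.58 to 1.11 with all libraries and at 3.03 to 4.12 without those hearts, and Npr3 below 0 with all libraries and at 0.67 to 0.89 without them, while Corin keeps its direction in all 4 panels.

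The receptors were followed in the same whole hearts. Adipocyte genes differed between times there. Adipoq was higher at day 30 than at day 7 by 7.21 ± 2.35 in Q150X and 8.65 ± 2.84 in wild type (edgeR, adjusted p = 0.0281 and 0.0304). Cfd passed in both genotypes too, Cidec in Q150X alone, and Plin1 and Lep, also higher, in neither. The part of adipocyte RNA in the receptor levels was not tested. Npr1 stayed at 19.2 to 36.9 CPM in all 21 hearts, and its log2 fold changes over uninjured hearts were -0.44 to 0.15, none of which passed. Npr2 was at 73.3, 53.1 and 60.0 CPM uninjured, 65.5 to 75.5 CPM at day 7 and 46.9 to 60.7 CPM at day 30 in Q150X hearts, and at 68.5, 53.1 and 56.6 CPM, 70.4 to 75.1 CPM and 56.1 to 60.9 CPM in wild type. The day 30 hearts lay below all day 7 hearts of their genotype, with log2 fold changes of -0.51 ± 0.11 in Q150X (adjusted p = 0.00242) and -0.34 ± 0.12 in wild type (adjusted p = 0.0430). With the replicate number as a block the wild-type change was -0.30 and missed the threshold (adjusted p = 0.0713), and it missed it without any 1 of the 7 wild-type libraries (adjusted p of 0.0556 to 0.128). At day 7 over uninjured hearts Npr2 changed by 0.22 ± 0.12 and 0.29 ± 0.12 (adjusted p = 0.190 and 0.119), and without uninjured hearts 1 by 0.35 ± 0.11 and 0.41 ± 0.11, which passed (adjusted p = 0.0185 and 0.0111); limma-voom on all libraries called it too (0.34 and 0.36, adjusted p = 0.00640 and 0.00177).

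Npr3, the clearance receptor, was at 46.5 CPM in Q150X and 68.5 CPM in wild-type uninjured heart 1, against 9.60 to 14.3 CPM in the other 4 uninjured hearts. In those 2 libraries Plvap and Vwf, 2 of the genes listed as endocardial, stood high too. Plvap was at 42.6 to 51.9 CPM against 3.27 to 5.32 CPM in the other 4, and Vwf at 126 to 183 CPM against 39.6 to 56.0 CPM. Levels of the rest of that list in those libraries are not given here, and Hapln1 missed the filter in hearts. The list did not move as one in wild-type day 7 over uninjured hearts, with all libraries. Log2 fold changes were -1.05 for Plvap, -0.54 for Vwf, -0.73 for Cytl1, -0.56 for Tmem108 and 0.96 for Adgrg6, and none passed. Infarcted hearts held 19.5 to 21.5 CPM of Npr3 at day 7 and 12.9 to 30.9 CPM at day 30 in Q150X, and 15.05 to 23.0 CPM and 19.9 to 21.1 CPM in wild type. With all libraries, Npr3 did not pass at either time (-0.19 ± 0.54 and -0.30 ± 0.54 in Q150X, -0.70 ± 0.54 and -0.57 ± 0.59 in wild type; adjusted p = 0.833, 0.719, 0.419 and 0.551). Without uninjured hearts 1 it was 0.78 ± 0.27 (adjusted p = 0.0380) at day 7 and 0.67 ± 0.27 (adjusted p = 0.0516) at day 30 in Q150X, and 0.75 ± 0.27 (adjusted p = 0.0556) and 0.89 ± 0.28 (adjusted p = 0.0225) in wild type. The sign of the Npr3 change was turned round by leaving out those libraries.

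In endothelial cells all 3 receptors were lower 3 days after infarction than in uninjured cells. Npr3 was at 39.9 and 20.3 CPM at day 3 against 252, 307 and 345 CPM uninjured in Q150X, and at 125 and 79.7 CPM against 518, 327 and 298 CPM in wild type. Npr1 was at 51.0 and 11.8 CPM against 161, 175 and 121 CPM in Q150X, and at 88.1 and 88.7 CPM against 173, 145 and 151 CPM in wild type. Npr2 was at 35.6 and 6.85 CPM against 98.1, 96.7 and 99.0 CPM in Q150X, and at 54.5 and 49.0 CPM against 99.9, 93.1 and 94.7 CPM in wild type. No day 3 library overlapped an uninjured one for any of these genes. With 2 against 3 libraries, groups can separate without a true change, and the share of all genes that did so was not counted. In Q150X all 3 passed edgeR's test, with log2 fold changes of -3.24 ± 0.46 for Npr3 (adjusted p = 0.00219), -2.16 ± 0.58 for Npr1 (adjusted p = 0.0230) and -2.09 ± 0.61 for Npr2 (adjusted p = 0.0307), 3 of 6 members against 33.8% of all genes. In wild type Npr3 fell by 1.73 ± 0.42 on the log2 scale (adjusted p = 0.0380), the 1 member called against 9.52% of all genes, while Npr1 (-0.66 ± 0.54, adjusted p = 0.495) and Npr2 (-0.73 ± 0.57, adjusted p = 0.474) did not pass. With the replicate number as a block, Npr3 in wild type (adjusted p = 0.0657) and Npr2 in Q150X (adjusted p = 0.0521) missed the threshold. Leaving out any 1 of the 5 wild-type libraries also ended the wild-type Npr3 call. In Q150X, leaving out uninjured library 1 or 2 ended the Npr1 call (adjusted p = 0.0561 and 0.0604), and leaving out any 1 of the 3 uninjured libraries ended the Npr2 call (adjusted p of 0.0672 to 0.0675). Neither gene passed when the Q150X groups were fitted alone (adjusted p = 0.133 for Npr1 and 0.151 for Npr2).

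These falls stood beside shifts in the markers of several cell types. The summed level of 12 endothelial genes was 1164 to 5542 CPM at day 3 against 16664 to 22978 CPM uninjured in Q150X, and 7667 to 7929 CPM against 17302 to 18762 CPM in wild type. The 10 leukocyte genes summed to 2052 to 4005 CPM against 56.9 to 115 CPM in Q150X and to 1729 to 2020 CPM against 85.3 to 105 CPM in wild type. Of 6 endocardial genes 4 fell in Q150X and 1 in wild type, Cytl1 in both (-3.78 ± 0.32 and -1.50 ± 0.28, edgeR, adjusted p = 0.000192 and 0.0136), and the 6 summed to 142 to 333 CPM against 706 to 1011 CPM in Q150X and to 712 to 972 CPM against 830 to 1200 CPM in wild type. Of 6 epicardial genes 5 rose and 1, Wt1, fell in Q150X, and 2 rose in wild type, Upk1b and Krt19 in both (9.65 and 3.43 in Q150X, 6.48 and 3.11 in wild type). The 6 summed to 21.6 to 66.8 CPM against 74.8 to 83.4 CPM in Q150X and to 63.6 to 91.9 CPM against 69.0 to 80.2 CPM in wild type. The epicardial sum in Q150X was thus lower at day 3 although 5 of its genes rose. Among all genes tested, 18.7% rose and 15.1% fell in Q150X, and 6.71% rose and 2.81% fell in wild type. The 8 mural genes summed to 138 to 690 CPM against 3569 to 4166 CPM in Q150X and to 1423 to 1480 CPM against 2875 to 3994 CPM in wild type, and the 7 fibroblast genes to 186 to 1188 CPM against 403 to 553 CPM and to 1709 to 2397 CPM against 508 to 653 CPM. The part of these cell types, and that of sex, was not tested. Without Q150X day 3 endothelial library 2 the changes were -2.78 ± 0.39 for Npr3, -1.45 ± 0.21 for Npr1 and -1.33 ± 0.14 for Npr2 in Q150X (adjusted p = 0.000381, 0.000155 and 8.57e-06). The fit then called Npr1 (-0.66 ± 0.16, adjusted p = 0.00507) and Npr2 (-0.73 ± 0.10, adjusted p = 0.000118) in wild type as well. That fit leaves 1 Q150X library at day 3, taken to vary like the others. Nppa in endothelial cells was at 6.59 and 0.0748 CPM at day 3 against 46.8, 68.7 and 22.8 CPM uninjured in Q150X, and at 4.20 and 1.33 CPM against 39.9, 45.2 and 49.3 CPM in wild type. These differences (-3.66 ± 1.35 and -3.86 ± 1.36) did not pass edgeR's test (adjusted p = 0.0663 and 0.121). DESeq2 called both (adjusted p = 0.00541 in Q150X and 0.00605 in wild type). The Q150X one also passed by library totals (adjusted p = 0.0233). Without Q150X day 3 library 1 the Q150X difference was -9.34. That value rests on the leukocyte-rich library 2 alone, which held 4 counts of Nppa. The wild-type one passed in limma-voom (adjusted p = 0.000206), with the wild-type groups alone (adjusted p = 0.00633) and without Q150X library 2 (adjusted p = 0.00679). Myl7 was at most 2.83 CPM in the 4 day 3 libraries.

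With all libraries and the filter on low counts, no member passed edgeR's test between Q150X and wild type. In uninjured, day 7 and day 30 hearts 0 of 6 were called (0%, 0% and 0.443% of all genes), with 1, 0 and 1 member at an unadjusted p under 0.05, 0 called by DESeq2 at each time and 1 by limma-voom, at day 30. In endothelial cells 0 of 6 were called at day 3 and in uninjured cells (0% of all genes in both), with 2 and 0 members at an unadjusted p under 0.05; DESeq2 called 1 at day 3 and limma-voom none. In cardiomyocytes 0 of 6 were called at day 3 and uninjured (0% of all genes in both), with 0 and 2 members at an unadjusted p under 0.05 and none by DESeq2 or limma-voom. The differences of the genotypes' infarct responses gave 0 called members in hearts at day 7 and day 30, in endothelial cells and in cardiomyocytes (0% of all genes in each), with 0, 2, 1 and 2 at an unadjusted p under 0.05 and none by DESeq2 or limma-voom. A p that misses the threshold does not show that the genotypes act alike.

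The widest genotype gaps in hearts were in the peptides and Corin. At day 30 Nppb was at 533, 360.3, 536 and 749 CPM in Q150X hearts against 261, 266 and 404 CPM in wild-type hearts, and 3 of the 4 Q150X hearts lay above all wild-type ones. The log2 fold change was 0.81 ± 0.48 (adjusted p = 0.467). Nppa averaged 822 ± 216 CPM in Q150X hearts (SD, n = 4) and 486 ± 375 CPM in wild-type hearts (SD, n = 3) at day 30. Its log2 fold change was 0.76 ± 1.32 (edgeR, adjusted p = 0.839). At day 7 it averaged 548 ± 508 CPM in Q150X hearts and 231 ± 199 CPM in wild-type hearts (SD, n = 4 each), with a log2 fold change of 1.24 ± 1.22 (edgeR, adjusted p = 1). Corin was lower in Q150X hearts at day 30, at 112, 125, 85.3 and 163 CPM against 177, 154 and 177 CPM in wild type. Q150X heart 4 lay inside the wild-type range. Its log2 fold change of -0.48 ± 0.15 missed the threshold in edgeR (adjusted p = 0.168), passed in limma-voom with library weights (-0.55, adjusted p = 0.00763), and passed in edgeR without Q150X heart 4 (-0.65, adjusted p = 0.0324). In uninjured cardiomyocytes Corin was at 432, 381 and 423 CPM in Q150X against 300.2, 344 and 317 CPM in wild type, with no overlap and a log2 fold change of 0.40 ± 0.14 (adjusted p = 0.251, and 0.0194 with no filter on low counts). Nppa there was at 65.4, 46.4 and 26.5 CPM against 29.4, 22.1 and 21.4 CPM, with overlap (0.96 ± 0.44, adjusted p = 0.388), and at day 3 the change was 0.25 ± 0.41 (adjusted p = 1). In day 3 endothelial cells the Q150X libraries lay below the wild-type ones for Npr1 (-1.54 ± 0.60), Npr2 (-1.33 ± 0.62) and Npr3 (-1.85 ± 0.45), none of which passed edgeR's test (adjusted p = 0.185, 0.237 and 0.143). Npr3 passed in DESeq2 (-1.80, adjusted p = 0.00333) and by library totals (-1.93, adjusted p = 0.0463). Without the leukocyte-rich Q150X library 2, which leaves 1 Q150X library, Npr1 was at -0.83 and Npr2 at -0.57. The Npr3 value of that fit is not given here. Without Q150X library 1, which leaves the leukocyte-rich one alone, the differences were -3.18 for Npr1, -3.20 for Npr2 and -2.61 for Npr3. Neither fit can show how Q150X libraries vary at day 3.

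Other genes of the pathway changed in part. A list of 20 held the related peptide genes Nppc and Ostn, proteases that make or degrade natriuretic peptides, cyclic GMP synthases, kinases, phosphodiesterases and an exporter. In day 3 cardiomyocytes 4 of 17 tested members rose and 1 fell in Q150X (median log2 fold change 0.24), and 1 rose and 3 fell in wild type (median -0.35), beside medians of all genes of -0.00455 and -0.00921. Of all genes 14.9% rose and 12.1% fell in Q150X, and 10.1% rose and 7.22% fell in wild type. The difference of the genotypes' day 3 responses was called for 0% of all genes, so these counts do not show a genotype difference. The part of leukocyte and fibroblast RNA in these changes was not tested. Among the Q150X risers were the phosphodiesterase Pde1a (2.68 ± 0.51, adjusted p = 0.00130), the actin regulator Vasp (0.75 ± 0.16, adjusted p = 0.00338) and the soluble guanylyl cyclase subunit Gucy1a1 (1.02 ± 0.27, adjusted p = 0.0106), and the proprotein convertase Furin fell by 0.58 ± 0.15 on the log2 scale (adjusted p = 0.00998). In wild type the peptide-degrading enzymes Ide (-0.57 ± 0.13, adjusted p = 0.00926) and Mme, neprilysin (-0.66 ± 0.21, adjusted p = 0.0374), and the phosphodiesterase Pde3a (-0.35 ± 0.10, adjusted p = 0.0293) fell, and the cyclic GMP-dependent kinase Prkg1 rose (0.70 ± 0.18, adjusted p = 0.0145).

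In hearts, 3 of 18 tested pathway genes were higher and 1 lower at day 30 than at day 7 in each genotype. Of all genes 14.9% were higher and 16.5% lower in Q150X, and 13.9% and 16.1% in wild type, so the share of the list that was higher was near that of all genes. Those higher were Dpp4, a peptidase that trims B-type natriuretic peptide (1.72 ± 0.39 in Q150X, adjusted p = 0.00281, and 1.64 ± 0.41 in wild type, adjusted p = 0.00643), and Vasp (0.55 ± 0.17, adjusted p = 0.0180, and 0.86 ± 0.18, adjusted p = 0.00185). So was the Corin-activating convertase Pcsk6 (0.71 ± 0.24, adjusted p = 0.0326, and 1.13 ± 0.26, adjusted p = 0.00384). Pde3a was lower (-1.15 ± 0.19, adjusted p = 0.000231, and -0.86 ± 0.21, adjusted p = 0.00512). Against uninjured hearts 3 rose and 3 fell at day 30 and 2 rose and 1 fell at day 7 in Q150X. In wild type 1 rose and 0 fell at each time. These counts include the uninjured libraries with atrial RNA, and counts without them are not given. Of all genes 15.6% rose and 14.2% fell at day 30 and 13.8% and 12.3% at day 7 in Q150X, and 5.45% and 3.49% at day 30 and 7.65% and 6.07% at day 7 in wild type. In day 3 endothelial cells 3 rose and 6 fell of 19 tested in Q150X, with medians of -0.60 for the list and 0.07 for all genes, and 1 rose and 1 fell in wild type. Of all genes 18.7% rose and 15.1% fell there in Q150X, and 6.71% and 2.81% in wild type.

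Nppa rose in day 3 cardiomyocytes beside other genes listed as higher in loaded muscle. Of 8 such genes, 5 rose in Q150X (median log2 fold change 1.16) and 6 in wild type (median 0.93), and none fell, against 14.9% and 10.1% of all genes that rose. The nicotinamide riboside kinase gene Nmrk2 rose by 3.45 ± 0.29 in Q150X and 3.62 ± 0.30 in wild type (adjusted p = 2.34e-05 and 3.41e-05). The growth factor Tgfb2 rose by 2.44 ± 0.28 and 2.70 ± 0.28 (adjusted p = 0.000113 and 0.000103), and the stretch-responsive Ankrd1 by 1.25 ± 0.17 and 1.09 ± 0.17 (adjusted p = 0.000230 and 0.000954). Of the adult muscle genes listed beside them, Myh6 (-0.71 ± 0.15, edgeR, adjusted p = 0.00299) and Atp2a2 (-0.58 ± 0.14, adjusted p = 0.00572) fell in Q150X. The others, Pln (-0.07 ± 0.10, adjusted p = 0.625) and Kcnd2 (0.06 ± 0.14, adjusted p = 0.811), did not pass there. In wild type none of the adult genes passed, and Myh6 came nearest (-0.45 ± 0.15, adjusted p = 0.0534). Load was not measured, and the part of fibroblast RNA in these changes was not tested. The lists were chosen with earlier results of these data known, so an excess over the share of all genes is a description. In hearts 3 of the 8 load genes rose at day 7 in each genotype, against 13.8% of all genes in Q150X and 7.65% in wild type. By day 30, 4 rose in Q150X and 2 in wild type, against 15.6% and 5.45% of all genes. The uninjured libraries with atrial RNA are included in these counts too. Of 15 regulators of cardiac transcription, 2 rose and 2 fell in day 3 Q150X cardiomyocytes and 0 rose and 3 fell in wild type, and the Q150X counts were near the shares of all genes, 14.9% up and 12.1% down (10.1% and 7.22% in wild type). The coactivator Myocd and the TEAD factor Tead1 fell in both genotypes (adjusted p of 0.000326 to 0.0229).

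Over the 14 group means, the level of Npr1 was most like that of the endothelial coreceptor gene Eng (Pearson r = 0.996 on the log2(CPM + 1) scale), and Npr3 most like Enpp6 (0.994). Corin was most like Ttc12, Acadl and Pkp2 (0.997, 0.996 and 0.996), Nppb most like Tmem116 (0.991), Npr2 most like Ybx1 (0.929) and Nppa most like Ubxn1 (0.928). Across the 19 whole hearts other than uninjured hearts 1, the likest were Uchl1 for Nppa (0.961), Gdf15 for Nppb (0.894) and Acacb for Corin (0.981). They were Tns2 for Npr2 (0.947), Foxc1, Inmt and Pdgfra for Npr3 (0.854, 0.853 and 0.850), and Krtcap3 for Npr1 (0.789). Among the members themselves, Corin and Npr2 had an r of 0.882 over these hearts and Nppa and Corin one of -0.358. These are descriptions over libraries that share times and cell composition, with no test.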

How the data were processed

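Bulk RNA-seq of 43 libraries in 14 groups was used as deposited by the authors: whole-number counts per Ensembl gene in 1 table, not normalized. HISAT2, kallisto and the build GRCm39 are named in the submitters' processing notes, without versions or roles; the sources used here do not give the strand setting, annotation or filters. Of 57010 genes, 52029 received a symbol from a GENCODE vM21 (GRCm38) table; promoter coordinates and sequences are RefSeq's (GRCm38.p6) and matched 6 of 6 members.

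Tests were run on these counts in R 4.3.3 using edgeR 4.0.16, with TMM scaling, filterByExpr (minimum count 10, total 15), robust quasi-likelihood F-tests, and Benjamini-Hochberg adjustment over all genes tested, with 1 fit each for hearts (21 libraries), endothelial cells (10), cardiomyocytes (12) and the uninjured isolated cells and hearts used for cell type comparisons. Calls are adjusted p under 0.05, and 23 comparisons were made. Each SE beside an edgeR value is the absolute log2 fold change divided by the square root of F, an approximation. limma 3.58.1 (voom with library weights), DESeq2 1.42.0, other scalings, filters, a replicate block and libraries left out were alternatives. Tests of this pipeline on simulated counts recovered 82% of 4-fold and 45% of 2-fold changes for wild-type day 7 against uninjured hearts, and 27% and 1% for wild-type day 3 against uninjured endothelial cells.

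The genes named are the 6 members in every comparison, for the pathway list at most the 4 called genes with the smallest p per comparison, at most 3 for other lists, and the genes most like each member. Members and lists were chosen with earlier results of these data known. Same-numbered uninjured hearts of both genotypes deviated together (r = 0.694, 0.491 and 0.531). Both uninjured hearts numbered 1 hold atrial RNA, and these values cannot tell that shared feature from a pairing by number. Elsewhere same-numbered libraries had r of -0.328 to 0.143 and share only a number. No 2 replicates held identical counts.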

Additional observations from a re-analysis of the deposited data

Results flagged for a closer look

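Of 18 sets of 4 hearts of 1 group tested gene by gene for a value far from the other 3, 3 held one; chance gives about 1 in 20. Npr1 was at 31.8 CPM in Q150X day 30 heart 3, against 22.6 to 23.3 CPM in the other 3. Npr2 was at 65.5 CPM in Q150X day 7 heart 2, against 74.5 to 75.5 CPM in the other 3, and at 60.7 CPM in Q150X day 30 heart 4, against 46.9 to 48.3 CPM in the other 3.

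For 2 genes every infarcted library of one genotype lay above its uninjured mean and every one of the other below it. All 6 members were searched for this in hearts at day 7 and day 30 and in both cell types at day 3. The share of all genes with this pattern was not counted, so the 2 genes have no baseline. Npr1 at day 30 was above the uninjured mean in all 4 Q150X hearts and below it in all 3 wild-type hearts, whose uninjured mean includes the library with atrial RNA; the interaction was 0.59 on the log2 scale (edgeR, adjusted p = 0.448). Corin at day 3 was below the uninjured mean in all 3 Q150X cardiomyocyte libraries and above it in all 3 wild-type ones; the interaction was -0.63 (edgeR, adjusted p = 0.520, and 0.0129 with no filter on low counts).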

How the results depend on the processing

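The counts of called members (of 6) moved with the settings as follows. Day 30 hearts, Q150X against wild type, gave 1 with limma-voom, against 0. Wild-type day 7 against uninjured hearts gave 2 with limma-voom, without uninjured hearts 1 and without the libraries that stand apart, against 1, and wild-type day 30 gave 1, 2 and 2 under those settings, against 0. Q150X day 7 gave 2 by library totals and with limma-voom and 4 without either set of libraries, against 1, and Q150X day 30 gave 4 with limma-voom and without the libraries that stand apart, against 2. Wild-type day 30 against day 7 gave 1 with no filter and with the replicate block, against 2. Day 3 endothelial cells, Q150X against wild type, gave 1 by library totals and with DESeq2, against 0. Leaving out the library that stands apart leaves 1 Q150X library there. Wild-type endothelial cells at day 3 gave 0 with the replicate block, 2 with DESeq2, and 4 with limma-voom, with the compared groups alone and without the library that stands apart, against 1; Q150X ones gave 1 with the compared groups alone, against 3. Wild-type cardiomyocytes at day 3 gave 2 by library totals, with DESeq2 and with limma-voom and 3 with no filter, against 1, and Q150X ones gave 2 by library totals and with limma-voom, against 1. With no filter the uninjured genotype comparison of cardiomyocytes gave 2 and their interaction 1, against 0.

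Nppa in wild-type day 7 hearts turned to 0.95 with the replicate block, 2.12 with limma-voom, 3.38 without the libraries that stand apart and 3.03 without uninjured hearts 1. Npr3 under the last 3 settings turned to 0.56, 0.63 and 0.75 in wild type at day 7, 0.70, 0.89 and 0.89 in wild type at day 30, 0.79, 0.78 and 0.78 in Q150X at day 7, and 0.52, 0.67 and 0.67 in Q150X at day 30; library totals gave 0.068 and 0.031 in Q150X at day 7 and day 30, and the replicate block 0.0092 at day 7. Nppa in uninjured Q150X cardiomyocytes over endothelial cells turned to -0.997 by library totals, -0.0011 with the replicate block and -0.15 with limma-voom, and Corin in day 3 Q150X cardiomyocytes to 0.035 by library totals. Other causes were not tested.

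Leaving out 1 library at a time, the called members ranged from 0 to 1 for day 30 hearts between genotypes, from 1 to 2 for wild-type and for Q150X day 7 hearts, from 1 to 3 for Q150X day 30 hearts, from 0 to 6 for day 3 endothelial cells between genotypes, from 1 to 6 for Q150X and from 0 to 5 for the interaction there, and from 1 to 2 for day 3 cardiomyocytes of each genotype. It was 1 each time for wild-type day 30 against day 7 hearts and 0 each time for wild-type endothelial cells. The counts of 5 and 6 came from leaving out Q150X day 3 endothelial library 1, which leaves the leukocyte-rich library 2 alone. Nppa ranged from -1.29 to 3.03 in wild-type and -0.013 to 3.54 in Q150X day 7 hearts, from -0.34 to 4.10 in wild-type day 30 hearts, from -0.10 to 0.57 between genotypes in day 3 cardiomyocytes and from -0.19 to 0.56 in uninjured Q150X cardiomyocytes over endothelial cells. Npr3 ranged from -1.12 to 0.75 in wild-type and -0.56 to 0.78 in Q150X day 7 hearts, and from -0.98 to 0.89 and -0.67 to 0.67 at day 30.

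The replicate block changed no other count of called members by over 1.5 times. Of the log2 fold changes of single genes, 473 kept direction and side of the threshold under a changed setting, 42 passed it, 8 lost it and 23 reversed. The 2 libraries per group at day 3 limit the endothelial results, as do 2 uninjured hearts per genotype once hearts 1 are left out.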
